A study of Mus musculus with 10 samples.

Results

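The genes described here make, convert and sense ceramide and its products, the lipids built on a sphingoid base. They are 35 named mouse genes of ceramide synthesis, sphingomyelin turnover and sphingosine 1-phosphate (S1P) signalling, chosen by symbol, and all 35 were found among the 53379 genes of the count table. A minimum on read counts was passed by 32 of the 35 and by 14337 genes in all. Cells of MC38, a mouse colon carcinoma line, had been implanted in C57BL/6J mice fed a control diet (5 mice) or a high-fat diet (5 mice). At day 21 the tumors were sorted for cells that were positive for the fluorescent protein dTomato, the mark of the implanted cells, and negative for CD45, the surface protein of leukocytes. RNA sequencing of polyadenylated RNA gave 1 library per mouse, and both diet groups share the line, the mark and the gate. The sources used here do not give the age or sex of the mice, what the diets were made of or how long they were fed.

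Sphingolipid synthesis starts at the endoplasmic reticulum, where serine palmitoyltransferase joins serine to a fatty acyl chain and ORMDL proteins hold the enzyme back when ceramide is plentiful. Ceramide synthases then add a second acyl chain, each preferring its own chain lengths, and a desaturase completes ceramide. Ceramide is turned into sphingomyelin, glucosylceramide or ceramide phosphate, or is cut by ceramidases to sphingosine, which sphingosine kinases phosphorylate to S1P. S1P is degraded inside the cell or exported, and then binds G protein-coupled receptors that guide cell movement, vessel integrity and lymphocyte traffic. Palmitate from the diet is a substrate of the entry enzyme, and the comparison of diets asks how tumor cells differ in a host fed more fat.

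The libraries held between 16513388 and 18653705 counts, and a count of 3, the limit that a count of 0 allows, was between 0.159 and 0.183 CPM (counts scaled by library size and TMM factor to a common total). Control libraries were larger, with a mean of 17801668 counts against 16892215 (exact two-sided permutation p = 0.0317 over 252 splits). Markers of epithelium, the labelled tumor type, were near 0: only 1 of 8 passed the count minimum, Epcam had 16 counts over the 10 libraries, and the summed level was 1.99 to 6.59 CPM in control and 1.52 to 3.66 CPM in high-fat libraries. Some genes typical of mesenchymal cells were abundant, and the summed level of 8 fibroblast markers was 6904 to 11850 CPM in control and 6224 to 12360 CPM in high-fat libraries. Col3a1 alone made up most of that sum, with means of 7992 and 7603 CPM, followed by Dcn at 967 and 1036 CPM, while Pi16 was at 1.68 and 3.10 CPM and Col15a1 at 0.736 and 1.64 CPM. Leukocyte RNA was present: the summed level of 8 pan-leukocyte markers was 15.8 to 182.4 CPM in control and 12.5 to 50.4 CPM in high-fat libraries, highest in control mice 3 and 4. All 8 were detected in every library. In bulk samples such as these, fewer cells of a type and less RNA per cell cannot be told apart.

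None of the 35 members passed the threshold between diets, set at 0.05 for p-values that were adjusted over all 14337 genes by the Benjamini-Hochberg method after edgeR quasi-likelihood tests. Over all genes 9 passed, which is 0.0628%. At an unadjusted p under 0.05, 3 of the 32 tested members were higher on the high-fat diet and 0 were lower, 9.38% in all, against 12.1% of all genes tested (5.45% higher and 6.62% lower). Over both directions that share is no larger than the background. For the higher direction alone, 9.38% of members is above the 5.45% of all genes, but it rests on 3 genes. Cers5, Sptssa and Sgms1 were the 3. The median log2 change, high-fat minus control, was 0.0036 over the members and 0.0057 over all genes, and the median size of a change was 0.08 and 0.10. Of the 32, 17 had a positive change, where 51.4% of all genes did. The smallest adjusted p of a member was 0.252, for Cers5. With DESeq2 and with limma-voom, also, 0 members passed.

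The data bounded most changes to less than 1.5-fold. The 95% interval of the change lay within 1.5-fold in both directions for 30 of the 32 members, the exceptions being Cers4, which was barely detected, and Plpp3. For 31 of the 32, all but Cers4, it lay within 2-fold. The spread between mice beyond counting error (the biological coefficient of variation) had a median of 11.8% over the members and 13.0% over all genes. It was smallest for Ormdl3, at 7.93%, and Cers5, at 7.94%, and largest for Cers4, at 44.1%.

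**Figure D1:**
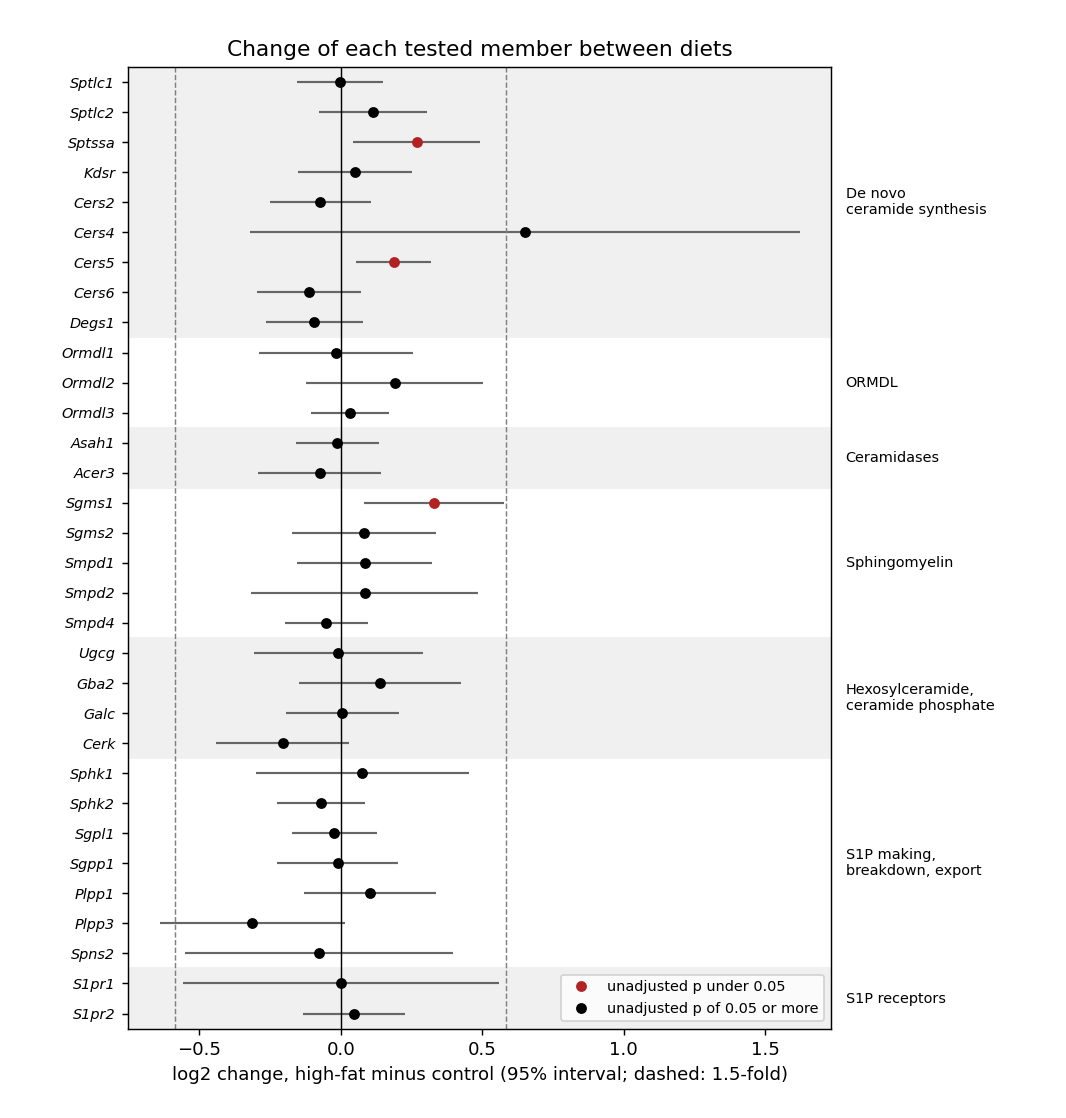
Log2 change (high-fat minus control, x axis) of each of the 32 tested members, grouped by role, with its 95% interval from edgeR; 5 mice per diet. Red points mark the 3 members with an unadjusted p under 0.05, and dashed lines mark a 1.5-fold change; the intervals of Cers4 and Plpp3 cross a dashed line.

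Among the 9 genes of de novo ceramide synthesis, 5 had positive and 4 negative changes, with a median log2 change of 0.05. Of the 9, 2 had an unadjusted p under 0.05, both higher, and neither passed the threshold. Over all genes tested 12.1% had such a p, 5.45% in the higher direction, and a share of 9 genes is coarse. Levels are compared between genes as CPM per kilobase (kb) of annotated exon, meaned over the 10 libraries. By that measure Cers2, the synthase of very long acyl chains, was highest of the 9 at 90.7 CPM per kb, next to the desaturase Degs1 at 90.0 CPM per kb. The values of these 2 overlapped between libraries. Both lay above 96% of all genes tested, at percentiles of 96.6 and 96.5. Sptssa followed at 40.1 and Cers5 at 36.3 CPM per kb, again with overlapping libraries. The large subunits of serine palmitoyltransferase were lower, Sptlc1 at 12.7 and Sptlc2 at 9.10 CPM per kb. Cers6, at 5.89, and Kdsr, which reduces the product of the entry enzyme, at 3.44 CPM per kb, were lower still. Cers4 was at 0.08 CPM per kb.

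Cers5 encodes a ceramide synthase that prefers palmitoyl chains (chromosome 15, 99734881 to 99772885, GRCm38). Its level was 114.6, 121.8, 121.6, 122.7 and 121.0 CPM in control mice 1 to 5. In high-fat mice 1 to 5 it was 136.6, 135.6, 129.3, 131.9 and 151.9 CPM. Every high-fat library lay above every control library, which was so for no other tested member; over all genes tested the diets did not overlap for 2.18% (1.08% with high-fat libraries above and 1.1% with them below). The change was 1.14-fold, with a log2 change of 0.19 (SE 0.06) and an edgeR adjusted p of 0.252 (unadjusted p = 0.00918). The unadjusted p was under 0.05 in each of the 20 alternative settings, while the adjusted p lay between 0.0665 (limma-voom with library quality weights) and 0.823 (library size as a covariate) over them.

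Sptssa encodes the small subunit that activates serine palmitoyltransferase (chromosome 12, 54645392 to 54656573). It was at 51.6, 54.1, 59.5, 50.9 and 60.2 CPM in control mice 1 to 5, and at 67.7, 54.0, 62.9, 64.5 and 83.5 CPM in high-fat mice 1 to 5. High-fat mouse 5 was highest, and high-fat mouse 2 lay within the control range. The log2 change was 0.27 (SE 0.10) with an edgeR adjusted p of 0.320 (unadjusted p = 0.0235). The unadjusted p was under 0.05 in 15 of the 20 alternative settings. It was 0.147 with library size as a covariate, 0.058 without control mice 3 and 4, 0.0533 without control mouse 1, 0.0567 without control mouse 4 and 0.0567 without high-fat mouse 5, where the log2 change was 0.17. The other subunits differed less: Sptlc1 had a mean of 45.4 ± 1.083 CPM (SD, n = 5) in control and 45.3 ± 3.91 CPM in high-fat mice, and Sptlc2 of 70.9 ± 4.65 and 76.7 ± 9.51 CPM.

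Cers2 was at 347, 359.5, 323.1, 316.1 and 362.4 CPM in control mice and at 328.3, 319.7, 298.4, 293.9 and 384.5 CPM in high-fat mice, in the order of their numbers. The diets overlapped, with the highest and the lowest library both among high-fat mice, and the log2 change was -0.07 (95% interval -0.25 to 0.11). Degs1 had a mean of 240.8 ± 5.59 CPM in control and 225.8 ± 26.8 CPM in high-fat mice (log2 change -0.09, 95% interval -0.27 to 0.08). Cers6, a synthase of palmitoyl ceramide like Cers5, was at 54.3 ± 4.98 and 50.2 ± 4.72 CPM, with a log2 change of -0.11 (95% interval -0.30 to 0.07). Kdsr was at 27.5 ± 3.12 and 28.5 ± 2.43 CPM. Cers4 had 173 counts in all 10 libraries, and its 95% interval, -0.32 to 1.62, allows changes in either direction.

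Cers2 was the main ceramide synthase gene by length in both diets. As a share of the summed per-kb level of Cers2, Cers4, Cers5 and Cers6, Cers2 held 69.8 ± 1.499% (SD, n = 5) in control and 66.5 ± 1.13% in high-fat libraries. Cers5 held 25.6 ± 1.39% and 29.2 ± 0.898%, with no overlap between diets: 24.3, 24.8, 26.9, 27.2 and 24.7% in control mice and 28.9, 29.4, 29.5, 30.3 and 27.8% in high-fat mice. This share is not independent of the Cers5 levels above, and it depends on the Cers2 levels as well. High-fat mouse 5 had the highest Cers5 level but the lowest Cers5 share of the high-fat mice. Cers6 held 4.60 ± 0.417% and 4.27 ± 0.367%, and Cers4 at most 0.153% in any library.

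**Figure D2:**
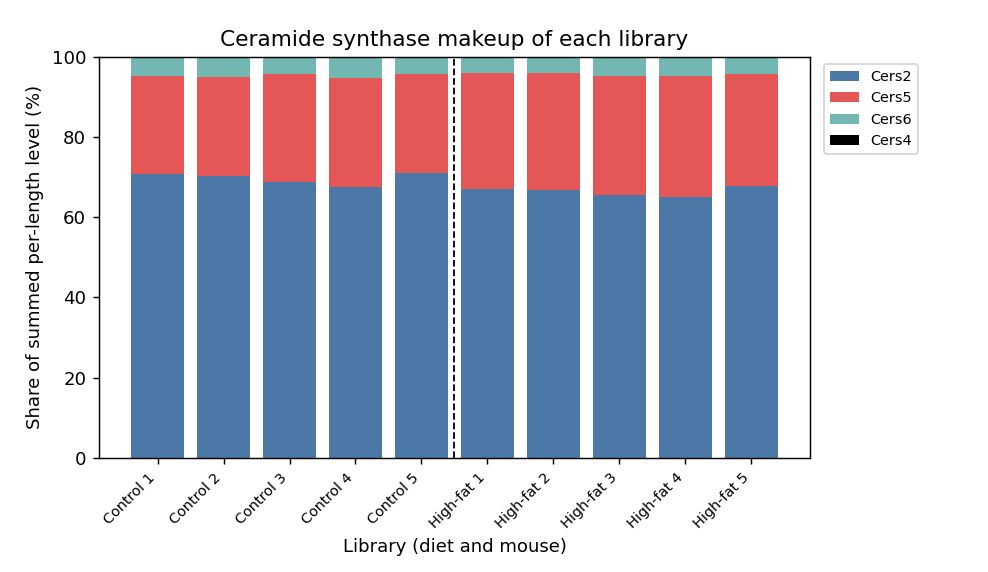
Stacked share (%) of the summed per-length level of the ceramide synthase genes in each library, with control libraries left and high-fat libraries right of the dashed line. Cers2 fills most of each bar, the Cers5 part is 24.3 to 27.2% in control and 27.8 to 30.3% in high-fat libraries, and Cers4, at most 0.153%, is too thin to see.

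The ORMDL genes, whose products restrain serine palmitoyltransferase, held 0 members with an unadjusted p under 0.05. Ormdl3 was the main member by length, at 83.0 ± 2.07% of the summed per-kb level in control and 82.02 ± 2.57% in high-fat libraries. Its level was 65.4, 64.9, 67.7, 59.7 and 64.2 CPM in control mice 1 to 5. In high-fat mice 1 to 5 it was 62.5, 68.9, 64.2, 70.8 and 62.8 CPM. High-fat mice 2 and 4 were highest and control mouse 4 lowest, and the other libraries overlapped. The log2 change was 0.03 (95% interval -0.10 to 0.17). Ormdl1 was at 9.03 ± 1.45 and 8.91 ± 0.937 CPM. Ormdl2 was at 6.88 ± 1.13 and 7.86 ± 1.26 CPM, but 69.9% of the 50-base windows along its longest transcript are also found in other genes, chiefly Dnajc14 on the opposite strand, so its reads are uncertain.

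Of the ceramidases, which release sphingosine, the lysosomal acid ceramidase Asah1 was the most abundant at 55.9 CPM per kb. It was at 178.5, 178.6, 191.8, 186.2 and 215.5 CPM in control mice and at 190.6, 191.1, 183.5, 199.2 and 178.2 CPM in high-fat mice. The highest library was control mouse 5 and the groups overlapped, with a log2 change of -0.01 (95% interval -0.16 to 0.14). Acer3, an alkaline ceramidase, was at 29.0 ± 2.33 and 27.6 ± 3.84 CPM (log2 change -0.07). Acer2, of the Golgi, had 37 counts over all libraries and was not tested.

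Sphingomyelin is made from ceramide by Sgms1 in the Golgi and by Sgms2 at the plasma membrane. Sgms1 (chromosome 19, 32122727 to 32389714) was at 47.8, 49.3, 55.2, 53.1 and 49.8 CPM in control mice 1 to 5. In high-fat mice 1 to 5 it was 49.1, 68.2, 64.0, 57.6 and 81.8 CPM. High-fat mice 2 to 5 lay above all control mice, and high-fat mouse 1 lay among them. The log2 change was 0.33 (SE 0.11), or 1.26-fold, with an edgeR adjusted p of 0.267 (unadjusted p = 0.0127). Without high-fat mouse 5 it was 0.23, and without high-fat mouse 1 it was 0.42 (adjusted p = 0.112). Like that of Cers5, its unadjusted p was under 0.05 in each of the 20 alternative settings. Sgms2 was at 29.3 ± 3.80 and 31.0 ± 5.11 CPM, a log2 change of 0.08 (95% interval -0.17 to 0.34).

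The sphingomyelinases, which return sphingomyelin to ceramide, held 0 members with an unadjusted p under 0.05. Smpd1, the acid enzyme of lysosomes, was at 28.5, 29.1, 37.7, 33.0 and 33.8 CPM in control mice and at 31.3, 40.7, 33.2, 38.3 and 28.2 CPM in high-fat mice. The diets overlapped, with high-fat mice 2 and 4 highest and high-fat mouse 5 lowest, and with a log2 change of 0.08 (95% interval -0.16 to 0.32). The neutral enzyme Smpd4 was at 80.5 ± 4.402 and 77.8 ± 5.12 CPM, and Smpd2, which shares 17.3% of its windows with other genes, chiefly Mical1 on the opposite strand, at 15.9 ± 2.58 and 16.9 ± 4.48 CPM. Smpd3 had 38 counts over all libraries and was not tested. By length Smpd1 was highest of the sphingomyelinases at 10.01 CPM per kb and Smpd4 next at 8.76, with overlapping libraries. In high-fat mouse 5 the order was reversed, at 8.46 and 8.62 CPM per kb. The ranking rests on annotated exon lengths of 3337 bases for Smpd1 and 9034 for Smpd4. Before division by length Smpd4 was higher, with a mean of 79.2 CPM over all libraries against 33.4 CPM.

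**Figure D3:**
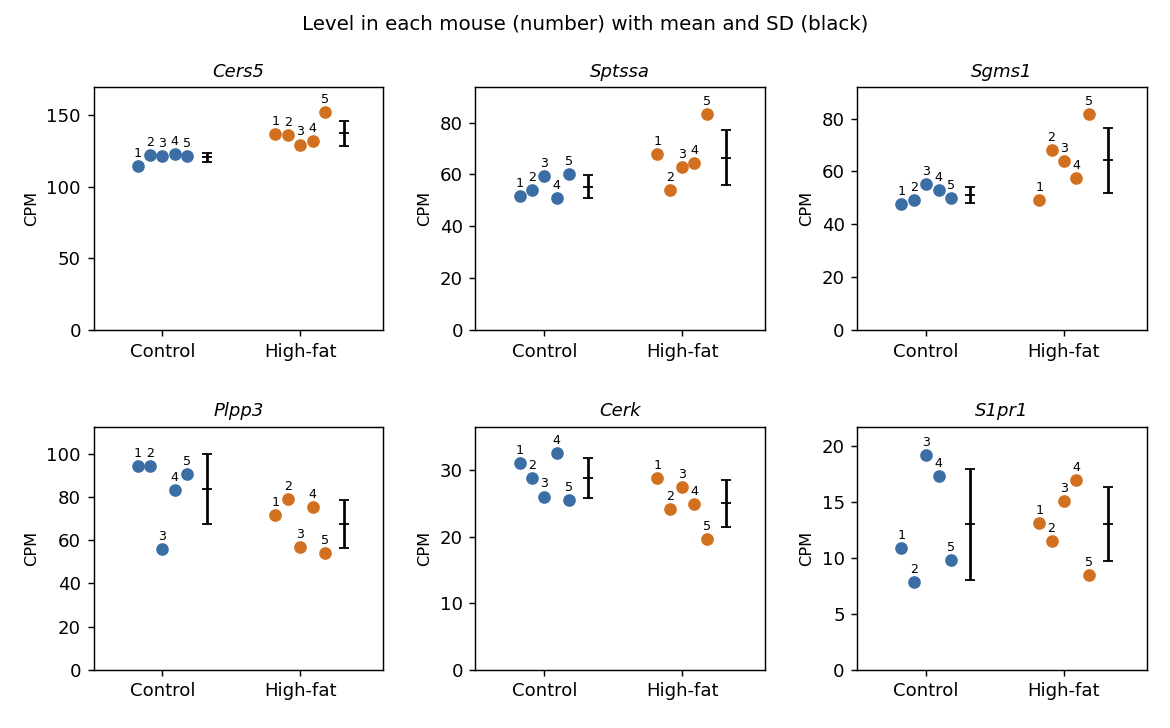
Level (CPM, axis from 0) of Cers5, Sptssa, Sgms1, Plpp3, Cerk and S1pr1 in each mouse, numbered, with the mean and SD (n = 5) of each diet in black. Cers5 alone has no overlap between diets; high-fat mouse 5 is highest for Cers5, Sptssa and Sgms1 and lowest for Plpp3, Cerk and, among high-fat mice, S1pr1.

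The start regions of the 3 members with an unadjusted p under 0.05 are printed so that their letters can be compared. Each is the 250 bases before the RefSeq start (GRCm38.p6), read 5′ to 3′ on the gene's strand, with capitals marking GC boxes (GGGCGG or its complement) and CCAAT boxes on either strand. Cers5 is at chr15:99772516-99772765, Sptssa at chr12:54656573-54656822 and Sgms1, the most upstream of 4 listed starts, at chr19:32388513-32388762, all on the minus strand. The Cers5 and Sgms1 regions lie inside the gene spans given above, which are from GENCODE M21. RefSeq and GENCODE thus place these starts differently.
Cers5: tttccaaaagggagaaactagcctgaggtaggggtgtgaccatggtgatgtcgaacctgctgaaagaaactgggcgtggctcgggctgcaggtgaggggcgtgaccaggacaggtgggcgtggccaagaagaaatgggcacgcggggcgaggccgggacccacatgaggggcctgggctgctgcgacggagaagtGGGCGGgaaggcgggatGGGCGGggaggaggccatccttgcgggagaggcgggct
Sptssa: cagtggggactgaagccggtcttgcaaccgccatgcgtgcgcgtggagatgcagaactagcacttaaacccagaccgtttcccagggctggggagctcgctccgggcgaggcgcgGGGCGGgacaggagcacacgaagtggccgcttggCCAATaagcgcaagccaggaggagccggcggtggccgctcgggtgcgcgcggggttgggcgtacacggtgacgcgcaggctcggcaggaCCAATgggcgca
Sgms1: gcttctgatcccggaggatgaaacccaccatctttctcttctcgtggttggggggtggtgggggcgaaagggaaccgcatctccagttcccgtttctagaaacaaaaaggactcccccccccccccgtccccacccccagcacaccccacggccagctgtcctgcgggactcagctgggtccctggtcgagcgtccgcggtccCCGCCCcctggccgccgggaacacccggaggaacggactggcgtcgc
The GC box occurred in all 3 and CCAAT in Sptssa alone, where it occurred 2 times. Of 32851 RefSeq start regions of this length, 32.7% held a GC box and 33.8% a CCAAT box. Among 46 start regions listed for 31 of the members the shares were 54.3% and 34.8%. The E-box CACGTG, bound by MYC and TFEB among others, was in none of the 3, in 15.2% of the members' regions and in 6.02% of all. The SREBP motif TCACNCCAC was in 0 of the 46 and in 1.05% of all regions. The regions of all genes were not limited to genes that passed the count minimum, and several starts of 1 gene count separately. The shares are therefore not of like sets, and a difference between them was not tested. These are matches of letters and not measured sites.

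Other fates of ceramide are glucosylation by Ugcg, the first step to gangliosides, and phosphorylation by Cerk. Gba2 removes the glucose again, and Galc removes galactose from galactosylceramide. Ugcg, the most abundant of these at 28.5 CPM per kb, was at 131.3, 143.7, 171.6, 156.0 and 141.2 CPM in control mice. In high-fat mice it was 100.8, 168.6, 136.5, 150.9 and 182.8 CPM. High-fat mice held both the lowest and the highest library, and the log2 change was -0.01 (95% interval -0.31 to 0.29). Cerk was at 31.0, 28.9, 26.1, 32.5 and 25.6 CPM in control and at 28.8, 24.2, 27.4, 25.0 and 19.7 CPM in high-fat mice, overlapping but with high-fat mouse 5 lowest. Its log2 change was -0.21 (SE 0.11, edgeR adjusted p = 0.496). Gba2 was at 17.2 ± 2.01 and 19.0 ± 3.63 CPM, and Galc at 34.3 ± 3.92 and 34.4 ± 2.96 CPM. The values of Cerk, Plpp3 and S1pr1 are given by mouse after they were seen.

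Of the 7 genes that make, break down or export S1P, 2 had positive and 5 negative changes, with a median log2 change of -0.02 and 0 with an unadjusted p under 0.05. By length the lyase Sgpl1, which cleaves S1P irreversibly, was highest at 47.1 CPM per kb, and the kinases were lower, Sphk2 at 9.43 and Sphk1 at 0.662 CPM per kb. Sgpl1 was at 295.1, 296.6, 317.5, 261.8 and 288.3 CPM in control mice and at 269.7, 284.3, 277.8, 298.0 and 306.8 CPM in high-fat mice. The high-fat range lay within the control range, with a log2 change of -0.02 (95% interval -0.17 to 0.13). Sphk2 made up 93.8 ± 0.946% of the summed per-kb kinase level in control and 93.2 ± 0.70% in high-fat libraries. It was at 40.2 ± 3.11 and 38.3 ± 2.09 CPM, but 22.3% of its windows are shared, chiefly with Dbp on the opposite strand. Sphk1, the inducible kinase, was at 3.08 ± 0.598 and 3.24 ± 0.449 CPM.

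The phosphatase Sgpp1, which returns S1P to sphingosine, was at 54.9 ± 4.23 and 54.5 ± 8.37 CPM. The exporter Spns2 was among the lower tested members, with 15 to 31 counts per library, at 1.45 ± 0.136 and 1.37 ± 0.381 CPM. Plpp1 and Plpp3 are surface phosphatases that dephosphorylate S1P and lysophosphatidic acid outside the cell. Plpp1 was at 26.3 ± 4.00 and 28.3 ± 2.79 CPM, with 25.8% of its windows shared, chiefly with Mtrex on the opposite strand. Plpp3 (chromosome 4, 105157347 to 105232764) was at 94.3, 94.1, 55.8, 83.3 and 90.5 CPM in control mice and at 71.4, 78.9, 57.0, 75.5 and 53.9 CPM in high-fat mice. Control mice 1, 2, 4 and 5 lay above every high-fat mouse, and control mouse 3 was lower than 4 of the high-fat mice. The log2 change was -0.31 (SE 0.15, 95% interval -0.64 to 0.01), with an edgeR adjusted p of 0.444. Without control mouse 3 it was -0.42 (unadjusted p = 0.00291, adjusted p = 0.121), and without control mice 3 and 4 it was -0.47 (adjusted p = 0.0847). Leaving out the control library that is low for this gene widens the difference by construction.

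S1pr2, a receptor known for slowing cell migration, was the main S1P receptor gene by length, at 76.4 ± 8.39% of the summed per-kb level in control and 77.1 ± 3.78% in high-fat libraries. It was at 112.6, 110.6, 92.2, 110.3 and 127.0 CPM in control mice and at 123.0, 108.6, 113.6, 120.4 and 105.6 CPM in high-fat mice. The diets overlapped, with a log2 change of 0.05 (95% interval -0.13 to 0.23). S1pr1, the receptor of endothelial cells and lymphocytes that promotes movement toward S1P, was at 10.9, 7.85, 19.2, 17.4 and 9.85 CPM in control mice and at 13.1, 11.5, 15.1, 17.0 and 8.46 CPM in high-fat mice. Control mice 3 and 4 were highest and the diets overlapped (log2 change 0.0019, 95% interval -0.56 to 0.56). S1pr3 had 38 counts over all libraries and was not tested.

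Control mice 3 and 4 were also highest for leukocyte markers, with summed pan-leukocyte levels of 139.9 and 182.4 CPM against 15.8 to 53.8 CPM in the other control mice. Of 11 endothelial markers 4 passed the count minimum, with a summed level of 23.0 to 33.0 CPM in control and 27.8 to 46.5 CPM in high-fat libraries, and Kdr had 93 counts in all. Pecam1 was the largest part of that sum, with means of 17.2 CPM in control and 18.2 CPM in high-fat libraries. Egfl7 had means of 4.68 and 4.16 CPM, Cdh5 of 2.38 and 4.62 CPM, and Vwf of 0.830 and 2.88 CPM. The smallest edgeR adjusted p of these 4 was 0.338, for Cdh5. The endothelial markers under the count minimum each had a higher mean in high-fat libraries, at low counts. Among them Tie1 was at 0.307 and 0.925 CPM and Emcn at 0.196 and 0.597 CPM. Tek, with 44 counts in all, was at 0.0671 and 0.455 CPM with no overlap between diets. Of 9 T and NK cell markers 1 passed, with a summed level of 0.265 to 11.7 CPM in control and 0.774 to 7.33 CPM in high-fat libraries. Their part in the S1pr1 values was not tested. Without control mice 3 and 4 the log2 change of S1pr1 was 0.45 (unadjusted p = 0.0495, edgeR adjusted p = 0.316). These are the libraries highest for S1pr1, so leaving them out raises the change by construction.

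**Figure D4:**
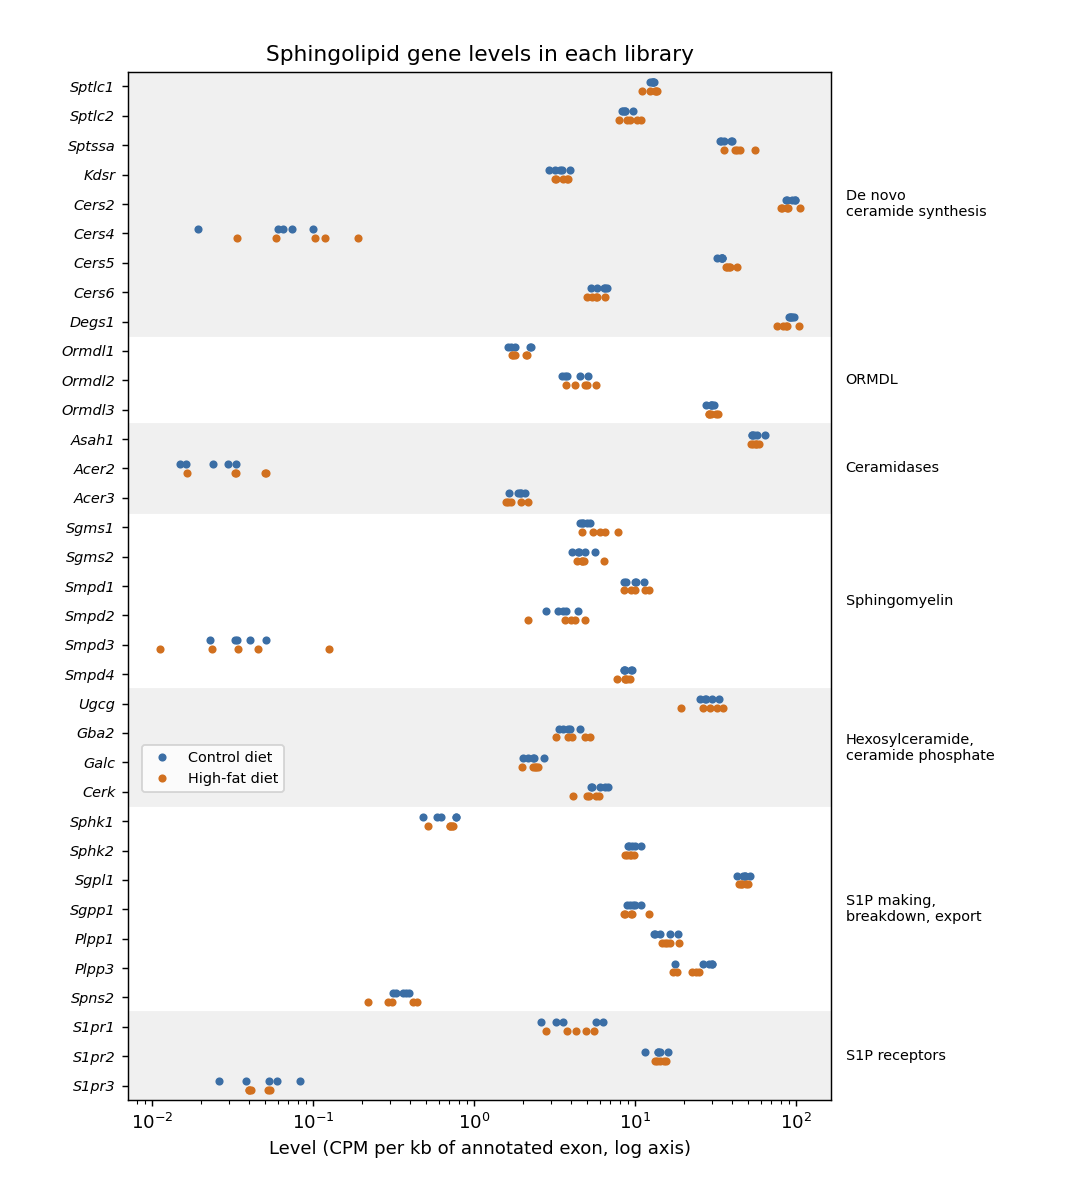
Level of all 35 members in each library (CPM per kb of annotated exon, log axis), by role; blue points are the 5 control and orange points the 5 high-fat mice. Cers2 and Degs1 are highest at about 90 CPM per kb, while Cers4, Acer2, Smpd3 and S1pr3 stay below 0.2 CPM per kb, and the diets overlap for each gene but Cers5.

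Between libraries the members did not vary evenly. High-fat mouse 5 was the highest library for 13 of the 32 tested members, or 40.6%, and over all genes tested it was highest for 17.7%. The 13 were Sptlc2, Sptssa, Cers2, Cers5, Degs1, Ormdl2, Acer3, Sgms1, Sgms2, Ugcg, Sgpp1, Plpp1 and Spns2, which include enzymes of synthesis and of breakdown. It was the lowest library for 7 members (21.9%, against 17.0% of all genes). The same library had the lowest summed level of fibroblast markers of the 10, at 6224 CPM, most of it Col3a1, and the part of this in its sphingolipid values was not tested. High-fat mouse 1 was highest for 0 members, against 11.1% of all genes. These shares are descriptions of single libraries.

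**Figure D5:**
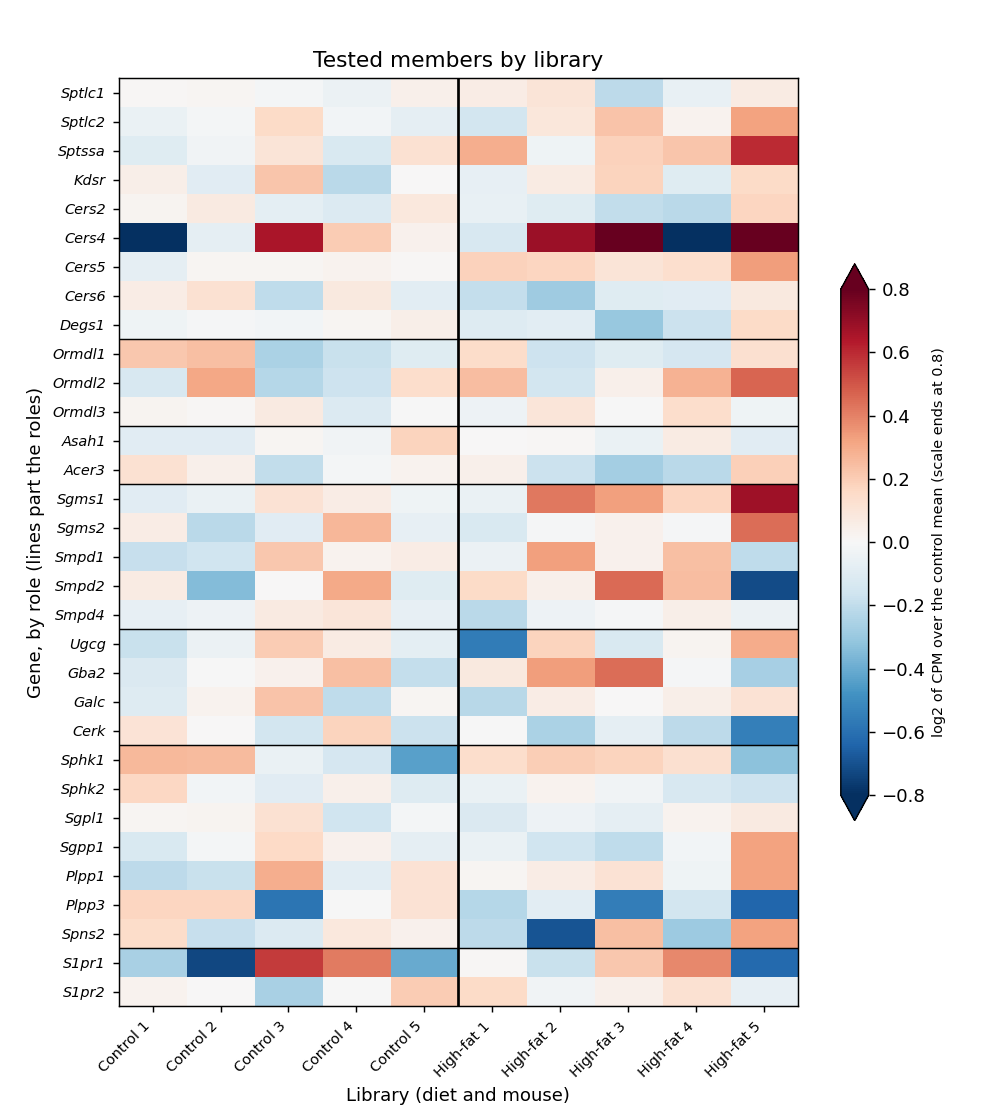
Log2 of CPM over the control mean (colour, scale ends at 0.8) for the 32 tested members (rows, by role) in the 10 libraries (columns). High-fat mouse 5 is the reddest column, being highest for 13 of the 32, and Cers5 is the row in which each high-fat library exceeds each control library.

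A wider list of 47 genes of the pathway, among them the ceramide transporter Col4a3bp, the glycolipid hydrolases and their activators, ganglioside enzymes and S1P-linked G proteins, held 27 tested genes. None of the 27 passed in edgeR, and 2 were higher and 1 lower at an unadjusted p under 0.05, against 12.1% of all genes in both directions. Arsa, the lysosomal sulfatase of sulfatide, was at 194.8, 218.9, 244.5, 211.1 and 240.4 CPM in control and 230.2, 260.9, 245.1, 259.9 and 263.4 CPM in high-fat mice (log2 change 0.18, SE 0.08, edgeR adjusted p = 0.352). B4galt5, which makes lactosylceramide from the product of Ugcg, had means of 222.3 ± 30.7 and 263.7 ± 30.5 CPM (log2 change 0.25, SE 0.11, edgeR adjusted p = 0.369). Sptlc3, Sptssb and Enpp7 had 0 counts in every library.

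Gm2a, the activator protein for ganglioside breakdown, was at 40.2, 33.1, 50.5, 56.8 and 48.5 CPM in control mice and at 39.0, 36.0, 25.4, 34.9 and 25.9 CPM in high-fat mice. Control mice 1, 3, 4 and 5 lay above every high-fat mouse and control mouse 2 lay among them, and the log2 change was -0.51 (SE 0.16, edgeR adjusted p = 0.242). Smpdl3b, a membrane phosphodiesterase related to acid sphingomyelinase, had 89 counts in all and fell under the count minimum. It was at 0.712, 0.318, 1.40, 1.48 and 0.399 CPM in control and at 0, 0.119, 0.122, 0.177 and 0.292 CPM in high-fat mice, with no overlap. The gap is narrow, between control mouse 2 and high-fat mouse 5, where a count of 3 was 0.159 and 0.175 CPM. The diets did not overlap for 2.18% of all genes tested, a share that leaves out genes of such low counts. DESeq2, which kept Smpdl3b, gave a log2 change of -2.59 (adjusted p = 0.0183), and edgeR without the minimum gave -2.53 (adjusted p = 0.0507). With DESeq2 326 of 29042 genes passed the threshold. All 12 macrophage markers were detected in every library, with a summed level of 63.7 to 427.8 CPM in control and 32.6 to 68.7 CPM in high-fat libraries, highest in control mice 4 and 3, the libraries in which Smpdl3b and Gm2a were also highest. Their part in these differences was not tested. Without control mice 3 and 4 the log2 change of Gm2a was -0.33 (edgeR adjusted p = 0.363). Leaving out the libraries that are highest for Gm2a narrows its difference by construction.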

How the data were processed

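The authors deposited raw read counts per gene for the 10 mice, and 0 columns were left out. Without roles, the submitters' processing notes list BWA 0.7.12, cutadapt 1.15 and FastQC 0.11.5, the package DESeq2 1.24.0, and GRCm38 and mm10 as builds. The sources used here do not give the counter, the annotation or the strand setting, so reads of genes that overlap on opposite strands cannot be told apart.

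Of 53379 identifiers, 53274 matched GENCODE M21 (version suffix ignored), which gave symbols, coordinates and exon lengths. The test was edgeR's (4.0.16, R 4.3.3), two-sided, on TMM-normalized counts after the filterByExpr minimum, with robust quasi-likelihood and no term but diet, and Benjamini-Hochberg adjustment covered 14337 genes. SEs are the change over the square root of F. Alternatives used DESeq2 1.42.0 and limma 3.58.1. The code was tested on simulated data. Between any 2 libraries chi-square over its degrees of freedom was at least 8.38, so all were kept as separate replicates. Each mean ± SD is over the CPM of 5 mice. Limits from counts cover counting error only, since reads carry no molecular identifiers. Each member is named; values are given by mouse for members with an unadjusted p under 0.05, with no overlap between diets or highest by length in their role, and further pathway genes are named under the first or second of these conditions. Members, lists and tests were chosen with earlier results of these data known. Start regions are from RefSeq (GRCm38.p6), which listed 31 of the 35 members.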

Additional observations from a re-analysis of the deposited data

Results flagged for a closer look

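The level of a single mouse stood apart from the other 4 of its diet, by a gap over 0.71 of the group's range, in 5 of 76 groups checked (38 genes in 2 diets). Chance gives about 1 in 20. Sptlc2 was at 79.0 CPM in control mouse 3 and 67.4 to 70.1 CPM in the other control mice. Plpp3 was at 55.8 CPM in the same mouse and 83.3 to 94.3 CPM in the others. Cers5 was at 114.6 CPM in control mouse 1 against 121.0 to 122.7 CPM. In high-fat mouse 5, Sgms2 was at 39.9 CPM against 26.9 to 30.0 CPM, and Sphk1 at 2.45 CPM against 3.37 to 3.52 CPM.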

How the results depend on the processing

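No member passed the threshold in any of the 20 alternatives, of which limma-voom with library quality weights was chosen after seeing the data, and the median log2 change of the members ran from -0.0040 to 0.05. The number of genes past the threshold, 9 in the report, was 326 with DESeq2, 5 with limma-voom, 811 with quality weights, 53 with no filter on low counts, 0 with library size as a covariate (edgeR, 5.70% of genes at an unadjusted p under 0.05) and 276 without control mice 3 and 4, and it ran from 1 to 27 when each library was left out in turn. Members lower at an unadjusted p under 0.05, 0 in the report, were 1 (Plpp3) with DESeq2, with the replicate block and without control mice 3 and 4, 5 with quality weights (28.1% of the 32 members in both directions, against 24.6% of all genes) and 0 to 1 with a library left out. Of the wider pathway list, 1 gene passed with DESeq2 (Smpdl3b, lower) and 1 with quality weights (B4galt5, higher, adjusted p = 0.0454), against 0 in the report. Library size itself differed between the diets, so a fit with it as a covariate cannot fully separate diet from depth. The mouse number as a replicate block gave 16 genes. The labels give both diets the numbers 1 to 5 with no sign that they pair mice: correlations of deviations between same-numbered mice ran from -0.360 to 0.333, and only number 1 matched best with its own.

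Of the 32 tested members with Arsa, B4galt5 and Gm2a, 35 genes in all, 20 kept their direction in each alternative and 15 did not. The changes that turned were small, at most 0.14 in size, none with an adjusted p under 0.616, and the cause was not tested. Log2 changes that turned were as follows. With RLE size factors, Sptlc1 0.0015. With upper-quartile factors, Sptlc1 0.0103, Asah1 0.0008, Ugcg 0.0018. With library size as a covariate, Sptlc1 0.0199, Kdsr -0.0973, Smpd2 -0.0200, Smpd4 0.0043, Ugcg 0.14, Galc -0.0231, Sgpp1 0.0605, S1pr1 -0.0831. Without control mice 3 and 4, Smpd4 0.0060, Ugcg 0.0914, Sgpp1 0.0572, S1pr2 -0.0324. With quality-weighted limma-voom, Kdsr -0.0064, Asah1 0.0529, Smpd4 0.0137, Ugcg 0.0417. With a library left out the ranges were Sptlc1 -0.0250 to 0.0451, Ormdl1 -0.0721 to 0.0489, Asah1 -0.0349 to 0.0423, Sgms2 -0.0225 to 0.16, Smpd2 -0.0228 to 0.23, Ugcg -0.0938 to 0.11, Galc -0.0428 to 0.0700, Sphk1 -0.0088 to 0.16, Sgpl1 -0.0599 to 0.0115, Sgpp1 -0.11 to 0.0329, Spns2 -0.20 to 0.0472, S1pr1 -0.14 to 0.18, S1pr2 -0.0094 to 0.11. Depth limits Acer2, Smpd3 and S1pr3, with 37 or 38 counts each.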
